A study of Mus musculus with 23 samples.

Results

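Genes for splicing factors were followed through the serum stimulation of primary mouse fibroblasts, connective tissue cells taken into culture from embryos. The genes were those whose array annotation gives a single symbol starting with Srsf, Hnrnp, Snrp, Sf3a or Sf3b. There were 41 such genes among the 8251 genes with 1 symbol on the array, and 58 probe sets, of which the brightest over the 23 arrays stood for each gene. They comprised 9 genes of SR proteins, 16 of heterogeneous nuclear ribonucleoproteins (hnRNPs), 8 of small nuclear ribonucleoproteins (snRNPs) and 8 of the SF3a and SF3b complexes, called SF3 genes here. All 41 symbols are current in RefSeq, and Snrp1c-ps2 is a pseudogene by its name. Another 7 probe sets that list a gene of these families together with other genes were left out.

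The cells came from e14.5 embryos and carried the labelled background C57/BLACK6 with the genotype ATF1 -/+, which all groups share. Starvation lasted 48 hours. During the next 2 hours 4-thiouridine at 200 µM, a uridine analogue, marked the RNA made in that time. Serum treated cultures had 10% serum during these 2 hours and starved cultures 1%. Newly transcribed RNA is the thiolated fraction that was bound to an organomercurial matrix. It was measured on 4 arrays of treated and 4 of starved cells, amplified total RNA on 4 of treated and 3 of starved cells, and total RNA on 4 of treated and 4 of starved cells. The labels' protocol speaks of linear amplification for every sample, so that the titles alone tell amplified from other total RNA. The titles call the arrays biological replicates.

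Splicing removes introns from pre-mRNA on the spliceosome. The snRNPs are its core particles, each a small nuclear RNA with particle-specific partners, in most of them wrapped in a ring of Sm proteins. The SF3a and SF3b complexes hold the U2 snRNP on the branch site of the intron. SR proteins bind exons and recruit snRNPs to the splice sites beside them, hnRNPs coat nascent transcripts and often block splice sites, and both are known to control the splicing and decay of their own mRNAs.

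Values are quantile normalized intensities on the scale log2(value + 16), and differences on that scale understate the change of dim probe sets. A gene was called at an adjusted p below 0.05 in limma's moderated test, with Benjamini-Hochberg adjustment over 12422 probe sets. Array medians of the deposited intensities ran from 7.3 to 75.2, so that all levels are relative to the other probe sets of the same array. Mean levels of the 41 genes ran from 5.95 for Hnrnpu to 11.37 for Srsf2. The rule takes the brightest probe set of a gene, and all 41 chosen ones lie above the median of all probe sets (5.91). By their whole profiles, arrays of newly transcribed and of amplified RNA fell into 2 clusters, each with treated and starved cells, with arrays 1 and 4 of both newly transcribed groups, 1 and 4 of amplified treated and 1 and 3 of amplified starved RNA in cluster 1. The log2 level of the GAPDH control was higher at its 3' than at its 5' end, with a mean gap of 2.16 ± 0.65 on the 8 newly transcribed arrays (SD) and 1.55 ± 0.60 on the 7 amplified ones, while the 8 arrays of total RNA averaged -0.20 ± 0.11. Fibroblast markers fitted the label, with 11 of 12 above the median of all probe sets, and their summed intensity was 9903 to 17013 on newly transcribed arrays, 20982 to 27495 on amplified arrays and 25923 to 33274 on arrays of total RNA. Macrophage markers were also present (7 of 9 above the median). Their summed intensity ran from 2212 to 6116 in newly transcribed RNA of treated cells, against 1063 to 4166 of starved cells. In amplified RNA it was 2361 to 6848 in treated and 2258 to 6278 in starved cells, and in total RNA 2538 to 6203 in treated and 2615 to 5651 in starved cells. The part of these markers in the results was not tested.

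Promoter sequence was available for 36 of the 41 genes. 4 promoters are shown as examples from the genes that differed between newly transcribed and amplified RNA. They are those of the snRNP gene that was lower in newly transcribed RNA, and of an SR gene and 2 SF3a genes that were higher. All 4 carry a marked motif, which not all genes that differed do. Each is the stretch of 250 bases before the RefSeq start site (GRCm38.p6), 5′ to 3′ on the strand of the gene. Capitals mark CCGGAAG (the core bound by ETS factors), TGACGTCA (the cAMP response element, bound by the CREB and ATF family) or TATAAA (the TATA box), on either strand.
Snrpg, chr6:86371290-86371539, plus strand: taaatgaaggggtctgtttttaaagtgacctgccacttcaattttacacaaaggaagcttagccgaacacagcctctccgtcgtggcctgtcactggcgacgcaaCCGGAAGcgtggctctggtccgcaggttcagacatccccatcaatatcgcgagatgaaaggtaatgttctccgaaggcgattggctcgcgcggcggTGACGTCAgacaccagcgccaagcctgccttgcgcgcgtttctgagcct
Srsf2, chr11:116853095-116853344, minus strand: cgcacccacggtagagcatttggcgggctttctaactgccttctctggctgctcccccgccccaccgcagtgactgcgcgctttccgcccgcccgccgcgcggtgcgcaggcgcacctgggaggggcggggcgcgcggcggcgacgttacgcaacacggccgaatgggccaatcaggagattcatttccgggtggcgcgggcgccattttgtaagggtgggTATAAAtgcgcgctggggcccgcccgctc
Sf3a1, chr11:4160104-4160353, plus strand: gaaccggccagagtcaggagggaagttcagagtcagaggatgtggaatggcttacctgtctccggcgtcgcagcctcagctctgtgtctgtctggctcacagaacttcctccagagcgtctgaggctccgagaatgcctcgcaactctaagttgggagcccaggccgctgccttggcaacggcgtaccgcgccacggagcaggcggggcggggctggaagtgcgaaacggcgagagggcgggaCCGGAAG
Sf3a2, chr10:80798485-80798734, plus strand: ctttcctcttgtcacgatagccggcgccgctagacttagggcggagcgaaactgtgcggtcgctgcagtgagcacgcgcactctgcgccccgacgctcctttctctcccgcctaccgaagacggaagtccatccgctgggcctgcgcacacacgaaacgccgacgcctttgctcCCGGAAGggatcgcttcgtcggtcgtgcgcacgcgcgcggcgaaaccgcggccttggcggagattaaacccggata

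Snrpg carries both the ETS core, at bases -145 to -139, and the full cAMP response element, at -49 to -42. Srsf2 has a TATA box at -29 to -24 and no ETS core. Sf3a1 has the ETS core directly before its start, at -7 to -1, and Sf3a2 has it at -76 to -70. The windows of Srsf1, Srsf10 and Hnrnpa1, which were also higher in newly transcribed RNA, hold none of these motifs. The ETS core stood in 16 of the 46 windows of these genes (34.8%, in 13 of the 36 genes), against 6.91% of all 32851 windows of this length. All windows were not limited to genes on the array or to bright ones. Overlapping windows of Sf3b2 and of Srsf4 count the same site again. Whether the share is particular to splicing genes was not tested. The cAMP response element stood in 1 window of the 46 (2.17%, against 1.55% of all windows), and its shorter core TGACGT, which also lies within it, in 8 (17.4%, against 6.47%). TATAAA stood in 4 windows (8.7%, against 12.4%), those of Hnrnpm, Sf3b3, Srsf2 and Srsf3. The E-box CACGTG stood in 1, that of Hnrnpd (2.17%, against 6.02%). A match is a description of the letters and not a binding site.

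SR genes lay higher in newly transcribed than in amplified total RNA, while Snrpg and Sf3b5, for small proteins of the snRNPs and of SF3b, lay lower. In serum treated cells all 9 SR genes had a positive difference, with a median of 0.72, against 0.02 over all probe sets. The 16 hnRNP genes had a median of 0.21 (11 positive), the 8 SF3 genes of 0.11 (5 positive) and the 8 snRNP genes of -0.20 (2 positive). In starved cells the medians were 0.52 for SR genes (8 of 9 positive), 0.28 for hnRNP genes (11 of 16), 0.30 for SF3 genes (6 of 8) and -0.42 for snRNP genes (2 of 8), against -0.01 over all probe sets. With values as deposited, the snRNP median in starved cells turned to 0.54 (6 of 8 positive), against 0.35 over all probe sets, while in treated cells it was -0.11 (2 of 8 positive).

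**Figure D1:**
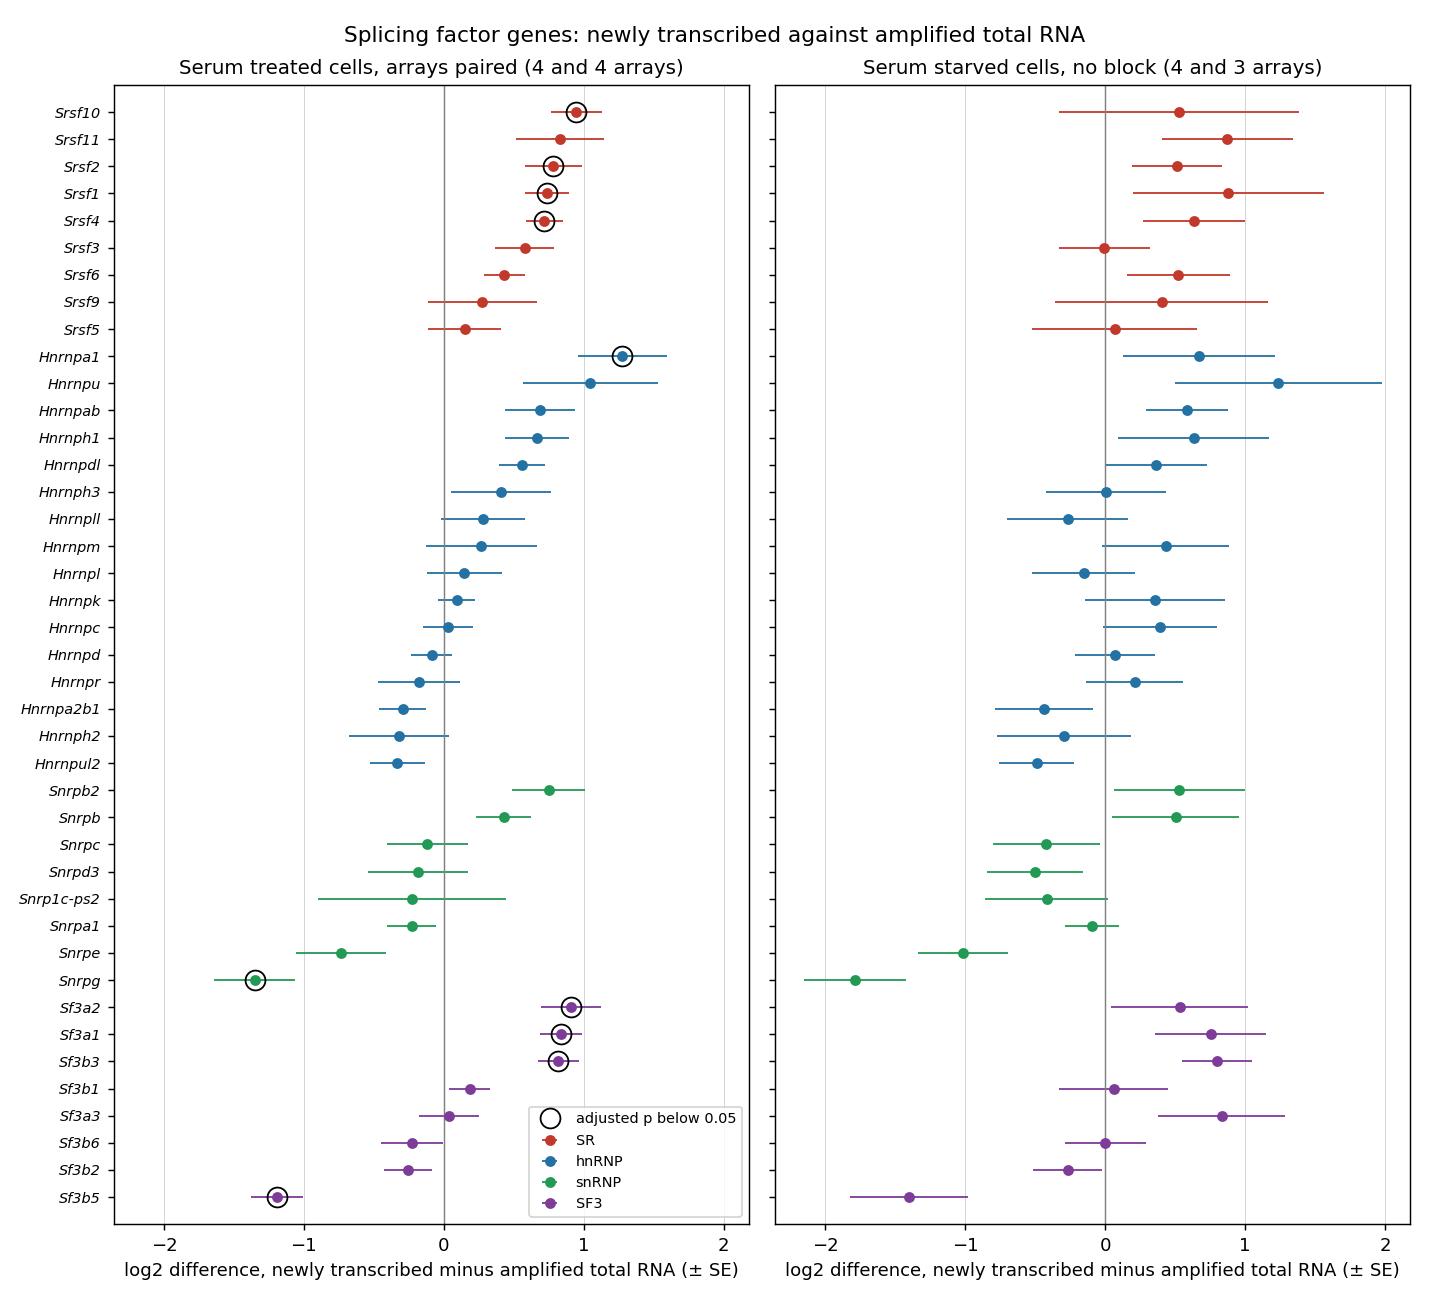
Log2 difference (± SE) of each of the 41 genes between newly transcribed and amplified total RNA, in serum treated cells with arrays paired by replicate number (left) and in starved cells without pairs (right). Colours give the subfamily and black rings an adjusted p below 0.05. All 9 SR genes lie right of 0 on the left panel, and Snrpg and Sf3b5 lie farthest left on both.

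Without pairs, limma called 0 of the 41 genes in treated cells (5 at an unadjusted p below 0.05, against 17.8% of all probe sets) and 4.05% of all probe sets. Same-numbered arrays of these groups deviated together, and with the number as a block 10 of the 41 were called (24.4%), 8 higher and 2 lower. Of all probe sets 21.1% were called in that fit, 11.1% higher and 10.1% lower, and of the probe sets brighter than the median, to which all 41 genes belong, 36.7%. The share of called genes thus stood near or under its background. Leaving out pair 1, 2, 3 or 4 left 14, 1, 1 or 4 genes called, with 3155, 818, 1056 or 1409 of the 12422 probe sets.

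Among the 9 SR genes the pairs called Srsf10, Srsf2, Srsf1 and Srsf4. These calls stand beside 21.1% of all probe sets and 36.7% of the bright ones in that fit. Whether the SR genes exceed that background was not tested. Srsf1, which founded the family as a general and alternative splicing factor, had 8.01, 5.73, 5.80 and 7.94 on newly transcribed treated arrays 1 to 4, against 6.96, 5.30, 4.98 and 7.30 on the amplified arrays of the same numbers. The groups overlapped, since arrays 1 and 4 were high and arrays 2 and 3 low in both, but each newly transcribed array exceeded its partner. The difference was 0.74 ± 0.16 (adjusted p = 0.024, limma with the block). In starved cells Srsf1 had 8.26, 6.45, 6.51 and 7.62 in newly transcribed RNA, against 6.78, 4.91 and 7.30 in amplified RNA, and 0.88 ± 0.68 (adjusted p = 0.57) without a block. With the array cluster as a block it was called there too, at 1.17 ± 0.26 (adjusted p = 0.033). Its 3 other probe sets, all dimmer, had 0.29, 0.28 and 0.31 in treated cells, none called.

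Srsf2, also known as SC35, was the brightest of all 41 genes. It had 12.21, 11.49, 11.46 and 12.42 in newly transcribed RNA of treated cells, against 11.83, 10.05, 10.80 and 11.77 in amplified RNA. The difference was 0.78 ± 0.21 (adjusted p = 0.044), and that of its second probe set 0.98 ± 0.20 (adjusted p = 0.021). Total RNA lay lower than newly transcribed RNA on every array, at 10.60 to 10.97 in treated and 10.50 to 10.93 in starved cells. Srsf10, which turns into a splicing repressor when it is dephosphorylated, differed by 0.95 ± 0.18 (adjusted p = 0.018), and its second probe set by 0.66 ± 0.21 (adjusted p = 0.079). Srsf4, a large member of the family, differed by 0.72 ± 0.13 (adjusted p = 0.015) and at its second probe set by 0.75 ± 0.28 (adjusted p = 0.12). Srsf3, a small member that also takes part in mRNA export, was not called by its brightest probe set (0.58 ± 0.21, adjusted p = 0.11), while its other one was (0.71 ± 0.16, adjusted p = 0.027). Srsf3 had 9.52, 9.05, 8.60 and 9.60 in newly transcribed RNA of treated cells, against 9.56, 8.01, 7.75 and 9.14 in amplified RNA, and the groups overlapped at arrays 1 and 4. In starved cells it differed by -0.01 ± 0.33. Srsf11 had 10.78, 9.95, 9.58 and 9.97, against 10.24, 8.49, 8.06 and 10.18 in treated cells (0.83 ± 0.31, adjusted p = 0.12), with the low amplified values on arrays 2 and 3. Srsf5 showed the smallest difference of the 9, at 0.15 ± 0.26 in treated and 0.07 ± 0.59 in starved cells.

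**Figure D2:**
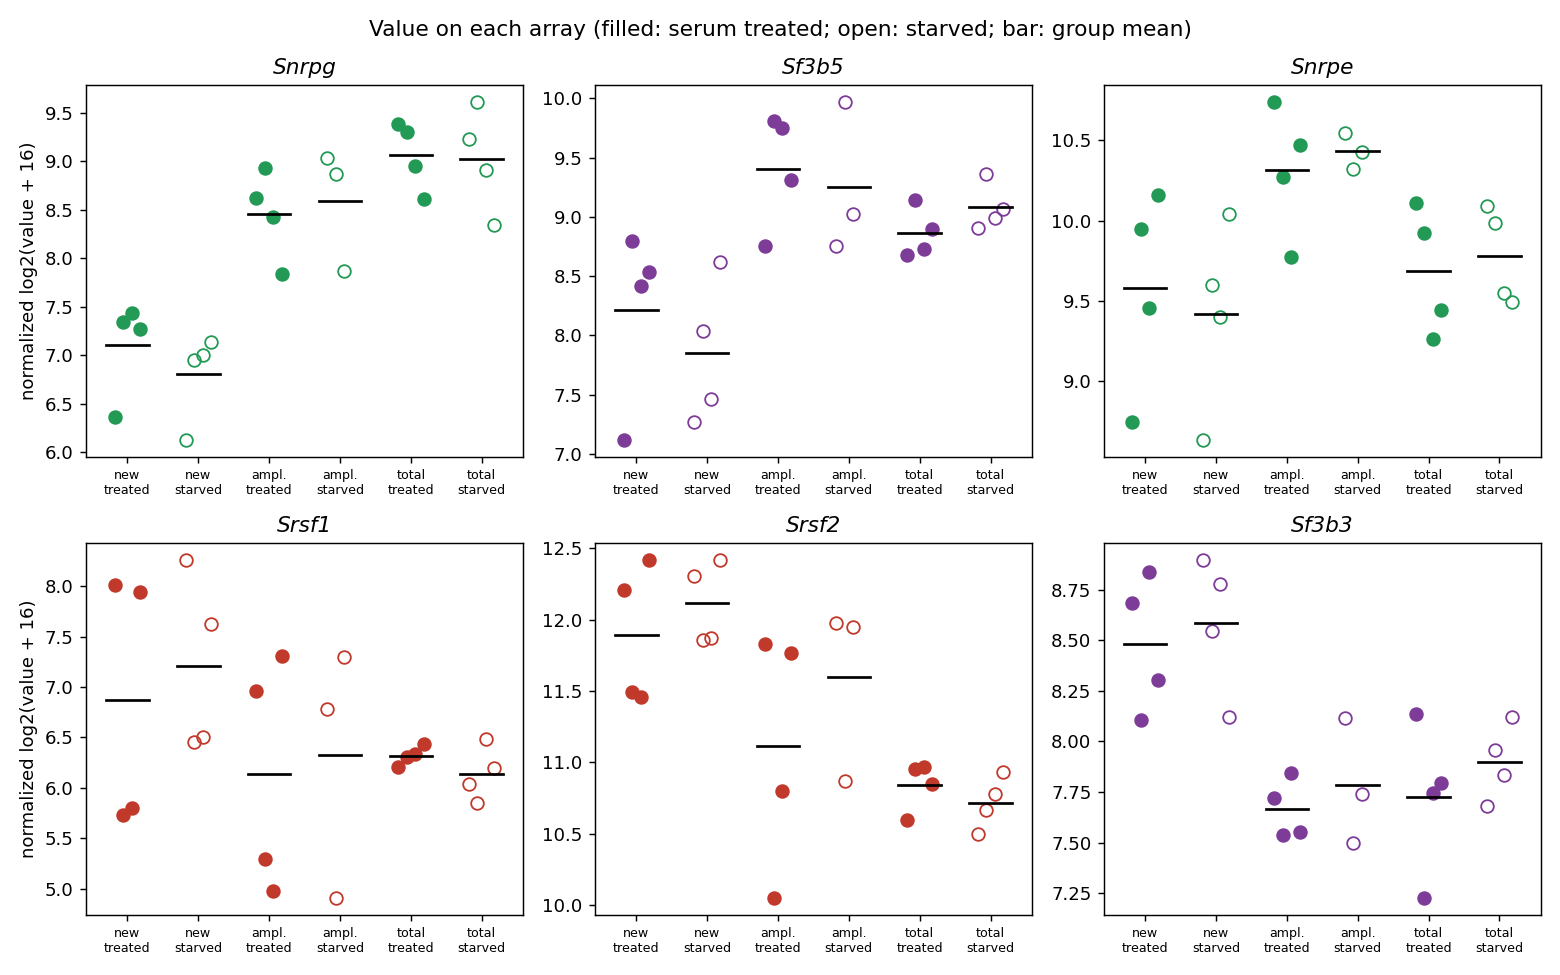
Normalized log2(value + 16) of 6 genes on every array, by group, with the 3 kinds of RNA from left to right and treated left of starved. Points are arrays and bars are group means. Snrpg and Sf3b5 are low in newly transcribed RNA, Sf3b3 is high there, and Srsf1 and Srsf2 spread widely within newly transcribed and amplified RNA but little in total RNA.

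The 9 SR genes moved with the array clusters as well as with the kind of RNA. The mean of the SR genes, each centred on its mean over the 23 arrays, ran from -0.16 to 0.82 in newly transcribed RNA of treated cells and from 0.20 to 0.83 of starved cells. In amplified RNA it ran from -0.75 to 0.51 in treated and from -0.54 to 0.63 in starved cells. In total RNA it stayed between -0.43 and -0.20 in treated and between -0.43 and -0.24 in starved cells. Within cluster 1 it averaged 0.80 in newly transcribed against 0.27 in amplified RNA of treated cells, and within cluster 2 -0.03 against -0.71. Within clusters, the 9 SR genes were higher in newly transcribed RNA in 9 of 9 cases in both clusters of treated cells, with medians of 0.51 and 0.71. In starved cells they were higher in 9 of 9 cases in cluster 1, with a median of 0.52, and in 7 of 9 in cluster 2, with 0.88, where amplified RNA has 1 array.

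**Figure D3:**
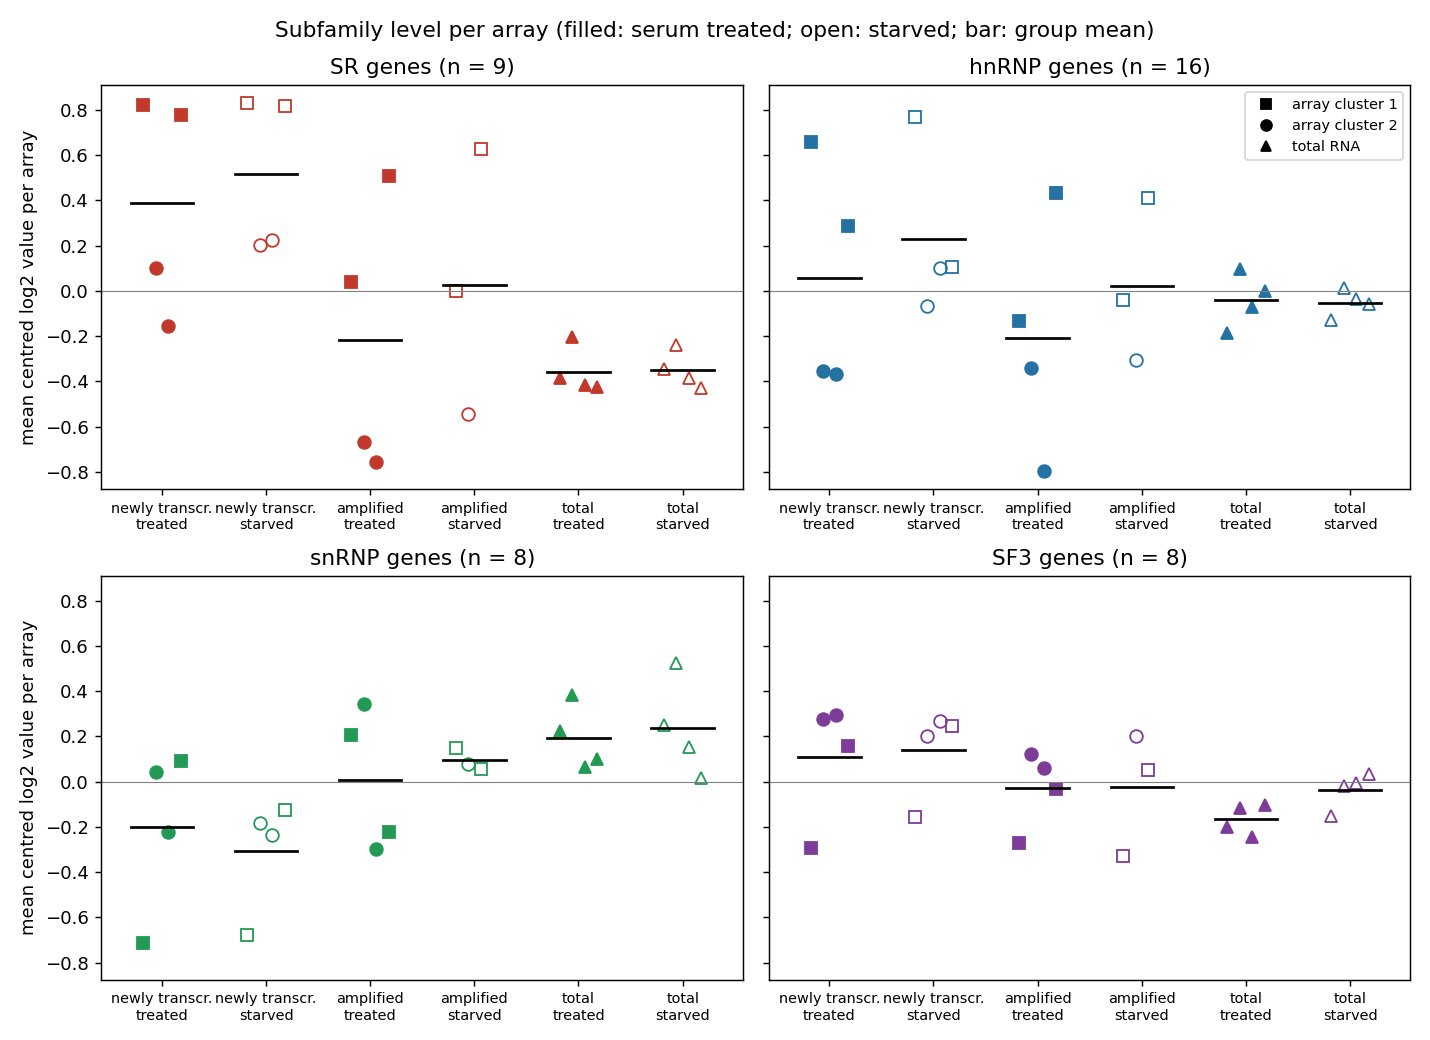
Mean centred log2 value of each subfamily on each of the 23 arrays, by group, with the 3 kinds of RNA from left to right and treated left of starved. Squares and circles are the 2 array clusters, triangles total RNA, and bars group means. SR genes are high in newly transcribed and low in total RNA, snRNP genes the other way round, and square arrays stand above circles in the SR and hnRNP panels.

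Of the 8 snRNP genes 1 was called with the block (12.5%, against 21.1% of all probe sets and 36.7% of the bright ones). This was Snrpg, which encodes the Sm ring protein SmG. Snrpg had 6.36, 7.34, 7.44 and 7.26 in newly transcribed RNA of treated cells, against 8.62, 8.93, 8.42 and 7.84 in amplified RNA. In starved cells it had 6.13, 6.95, 7.0 and 7.13, against 9.03, 8.86 and 7.87. The groups did not overlap in either condition. In total RNA it had 9.39, 9.30, 8.95 and 8.61 in treated and 9.23, 9.61, 8.91 and 8.34 in starved cells. The differences between newly transcribed and amplified RNA were -1.35 ± 0.29 in treated cells (adjusted p = 0.023 with the block and 0.058 without) and -1.79 ± 0.37 in starved cells (adjusted p = 0.052), where the cluster block gave -1.85 ± 0.35 (adjusted p = 0.023). Snrpe, which encodes SmE and neighbours SmG in the ring, had 8.64 to 10.04 in newly transcribed against 10.32 to 10.55 in amplified RNA of starved cells. Its differences were -0.73 ± 0.32 in treated (adjusted p = 0.17) and -1.01 ± 0.32 in starved cells (adjusted p = 0.15).

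The other snRNP genes were spread about 0. Snrpb2, a protein of the U2 snRNP, had 7.04, 7.48, 6.67 and 8.86 in newly transcribed RNA of treated cells, against 7.23, 6.22, 5.75 and 7.84 in amplified RNA (0.75 ± 0.26, adjusted p = 0.097 with the block). Its second probe set gave 0.02 ± 0.24. Snrpa1, its partner on the U2 snRNA, had 6.88, 7.46, 7.09 and 7.51 in newly transcribed RNA, against 7.38, 7.88, 6.83 and 7.75 in amplified RNA of treated cells. That is a difference of -0.23 ± 0.17 in treated cells, and in starved cells it was -0.09 ± 0.19. Snrpb, for the SmB and SmB' proteins, differed by 0.43 ± 0.20 at a probe set of level 10.91 and by -0.31 ± 0.20 at one of level 4.27, neither called. Snrpc, a U1 protein, differed by -0.12 ± 0.29 and Snrpd3, for SmD3, by -0.18 ± 0.36 in treated cells.

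The 8 SF3 genes split. With the block Sf3b3, Sf3a1 and Sf3a2 were called higher and Sf3b5 lower in treated cells. The background in that fit was 21.1% of all probe sets and 36.7% of the bright ones. Sf3b3, a large scaffold subunit of SF3b, had 8.69, 8.11, 8.84 and 8.30 in newly transcribed RNA of treated cells, against 7.72, 7.54, 7.84 and 7.55 in amplified RNA, and 8.90, 8.54, 8.78 and 8.12 in starved cells, against 8.12, 7.5 and 7.74. No amplified array reached the newly transcribed arrays of its condition, but in starved cells the groups all but met (8.11829 in amplified against 8.11855 in newly transcribed RNA). The differences were 0.82 ± 0.14 in treated (adjusted p = 0.014 with the block, 0.063 without) and 0.80 ± 0.25 in starved cells (adjusted p = 0.14). Sf3a1 and Sf3a2, subunits that tie SF3a to the U2 snRNP, were called in treated cells with the block, at 0.84 ± 0.15 (adjusted p = 0.014) and 0.91 ± 0.21 (adjusted p = 0.032). The second probe set of Sf3a2 gave 0.33 ± 0.33. Sf3a3, the third subunit, differed by 0.04 ± 0.21 in treated and 0.83 ± 0.45 in starved cells.

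Sf3b5, a small subunit of SF3b, went against Sf3b3. It had 7.12, 8.79, 8.41 and 8.54 in newly transcribed RNA of treated cells, against 8.76, 9.81, 9.75 and 9.31 in amplified RNA, so that every newly transcribed array was below its partner while the groups met at 1 array each. In starved cells it had 7.27, 8.03, 7.47 and 8.62, against 8.75, 9.97 and 9.02, without overlap. The differences were -1.19 ± 0.18 (adjusted p = 0.0094 with the block, 0.17 without) in treated and -1.40 ± 0.42 (adjusted p = 0.13) in starved cells. Sf3b1, which contacts the branch site, differed by 0.19 ± 0.14 and 0.06 ± 0.39. Sf3b2 differed by -0.26 ± 0.17 and -0.27 ± 0.25, and Sf3b6 by -0.23 ± 0.22 and 0.00 ± 0.29.

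Of the 16 hnRNP genes 1 was called with the block (6.25%, against 21.1% of all probe sets and 36.7% of the bright ones), Hnrnpa1, a repressor that binds exonic silencers. Hnrnpa1 had 8.50, 6.75, 6.85 and 8.16 in newly transcribed RNA of treated cells, against 6.05, 6.15, 6.06 and 6.91 in amplified RNA. Arrays 1 and 4 were high in newly transcribed RNA, and arrays 2 and 3 lay just below amplified array 4. The difference was 1.27 ± 0.32 (adjusted p = 0.038). Hnrnpab had 8.36, 8.22, 8.45 and 7.59, against 7.17, 7.57, 7.37 and 7.76 (0.69 ± 0.25, adjusted p = 0.11). Hnrnpu, a nuclear scaffold protein, differed by 1.05 ± 0.48, the widest 95% interval of the 16 genes, up to 2.22, and by 0.25 ± 0.26 at its second probe set. Hnrnpul2, its relative, had 6.19, 6.59, 6.59 and 6.13, against 6.52, 7.37, 6.35 and 6.58 (-0.33 ± 0.20), while its second probe set gave 0.17 ± 0.19. The other 12 ranged from -0.32 ± 0.36 for Hnrnph2 to 0.67 ± 0.23 for Hnrnph1, none called.

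In starved cells 0 of the 41 genes were called without a block (4 at an unadjusted p below 0.05, against 18.2% of all probe sets), and 3.17% of all probe sets. The groups of 4 genes did not overlap, Sf3b3 higher (where the groups all but met) and Snrpe, Sf3b5 and Snrpg lower, against 16.6% of all probe sets. In treated cells the groups of 2 genes did not overlap, Sf3b3 and Snrpg, against 11.1%. With the array cluster as a block, Srsf1 and Snrpg were called in starved cells, with 11.9% of all probe sets. In treated cells the cluster block called the same 10 genes as the pairs, with 18.2% of all probe sets. The clusters there are arrays 1 and 4 against arrays 2 and 3, so that every pair lies within a cluster. Both blocks were also drawn from these same arrays, so that the calls of 1 are no independent support for those of the other. Arrays of starved cells did not pair by number.

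Kinases that phosphorylate SR proteins were among the genes called higher. Of the 8 measured genes in a list of SR protein kinases and their regulators, 4 were called higher in treated cells with the pairs and 0 lower, with a median over the list of 0.76. The list's 50% stands beside 21.1% of all probe sets (11.1% higher) and 36.7% of the bright ones in that fit, and without the block 0 of the 8 were called. They were the whole Clk family of nuclear kinases, Clk1 (1.42 ± 0.14), Clk4 (1.35 ± 0.20), Clk3 (1.05 ± 0.13) and Clk2 (0.75 ± 0.15). Clk3 was also called in starved cells without a block (1.09 ± 0.19, adjusted p = 0.034). Of 17 SR-like factors and coactivators 5 were called higher and 0 lower with the pairs, 29.4% and so near the background, and without the block Luc7l alone was called. These were Tra2b (1.35 ± 0.18), an activator of exon inclusion, Pnn (1.27 ± 0.18), Rbm39 (1.24 ± 0.18), Luc7l (0.92 ± 0.16) and U2surp (0.57 ± 0.15).

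Among 42 other spliceosome proteins 7 were called higher and 4 lower with the pairs (median 0.09), 26.2% and so also near the background, and without the block Snrnp25 alone was called. The lower ones were Snrnp25, of the minor spliceosome (-2.20 ± 0.23), Lsm4 (-1.82 ± 0.39) and Lsm7 (-0.88 ± 0.16), of the Lsm ring on the U6 snRNA, and Bcas2 (-0.77 ± 0.21), of the Prp19 complex. The higher ones were Prpf38b (1.28 ± 0.18), Prpf39 (1.01 ± 0.26), Smndc1 (0.92 ± 0.18), Slu7 (0.87 ± 0.17), Snrnp40 (0.83 ± 0.18), Xab2 (0.74 ± 0.14) and Cwc22 (0.60 ± 0.14). Of 30 other splicing regulators that bind RNA, 2 were called (6.67%), Syncrip (1.08 ± 0.15) and Tardbp (0.79 ± 0.16), both higher. Of 7 genes of snRNP assembly 2 were called (28.6%), Wdr77 (1.05 ± 0.23) and Tgs1 (0.95 ± 0.22), both higher, and of 4 genes of the exon junction complex 0. In starved cells without a block, Snrnp25 (-2.01 ± 0.37), Cwc22 (1.19 ± 0.23) and Coil (1.00 ± 0.20), the scaffold of Cajal bodies, were also called.

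Amplified total RNA was also compared with the RNA that the titles call total RNA only, over treated and starved cells together. This comparison shares the amplified arrays with the one above. Of the 41, 14 were called (34.1%), 8 higher and 6 lower in amplified RNA, against 20.3% of all probe sets (10.5% higher, 9.76% lower) and 30.5% of those brighter than the median. Of the 8 snRNP genes 7 were called, 4 higher and 3 lower. Snrpb2 had 5.75 to 7.84 on amplified arrays of treated cells, against 5.21 to 6.02 on total RNA arrays, and 6.88 to 7.81 against 5.01 to 6.11 in starved cells, a difference of 1.44 ± 0.29 over both (adjusted p = 0.0031). Snrpd3 (0.94 ± 0.27), Snrpa1 (0.83 ± 0.16) and Snrpe (0.64 ± 0.17) were also higher. Snrpc had 5.22 to 7.74 and 5.88 to 7.12 in amplified RNA of treated and starved cells, against 7.86 to 8.40 and 8.17 to 8.74 in total RNA (-1.75 ± 0.31, adjusted p = 0.0012). Snrp1c-ps2 (-1.69 ± 0.38), a pseudogene whose probe set may include related transcripts, and Snrpb (-1.21 ± 0.20) were lower too.

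Outside the snRNPs, Sf3b1 (1.20 ± 0.24), Sf3b2 (1.08 ± 0.13), Srsf3 (1.02 ± 0.26) and Hnrnpa1 (0.77 ± 0.17) were higher in amplified RNA. Hnrnpl, which binds CA repeats, had 5.21 to 7.35 and 5.58 to 6.79 in amplified RNA of treated and starved cells, against 7.82 to 8.71 and 7.67 to 8.55 in total RNA (-1.98 ± 0.29, adjusted p = 2.9e-04). Sf3a2 (-1.17 ± 0.26) and Hnrnpab (-0.93 ± 0.11) were lower as well. With values as deposited, 3 of the 41 were called in place of 14, and 353 of the 12422 probe sets in place of 2516.

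Serum changed none of the 41 genes past the threshold in any kind of RNA. In newly transcribed RNA limma called 0 of 41, without pairs (0 at an unadjusted p below 0.05, against 6.44% of all probe sets) and with them (7, against 21.7%). Of all probe sets 0% were called without pairs and 1.74% with them. The groups of 0 of the 41 genes did not overlap, against 3.82% of all probe sets. With the pairs, the 95% intervals of 39 of the 41 genes lay within 1 of 0 on the scale log2(value + 16), while without pairs 16 did. Because of the added 16, this bound is looser than a 2-fold change of the intensity itself, most of all for dim probe sets. The median difference was -0.07 (16 positive), against 0.01 over all probe sets. By subfamily it was -0.16 for SR, -0.22 for hnRNP, 0.13 for snRNP and -0.08 for SF3 genes.

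**Figure D4:**
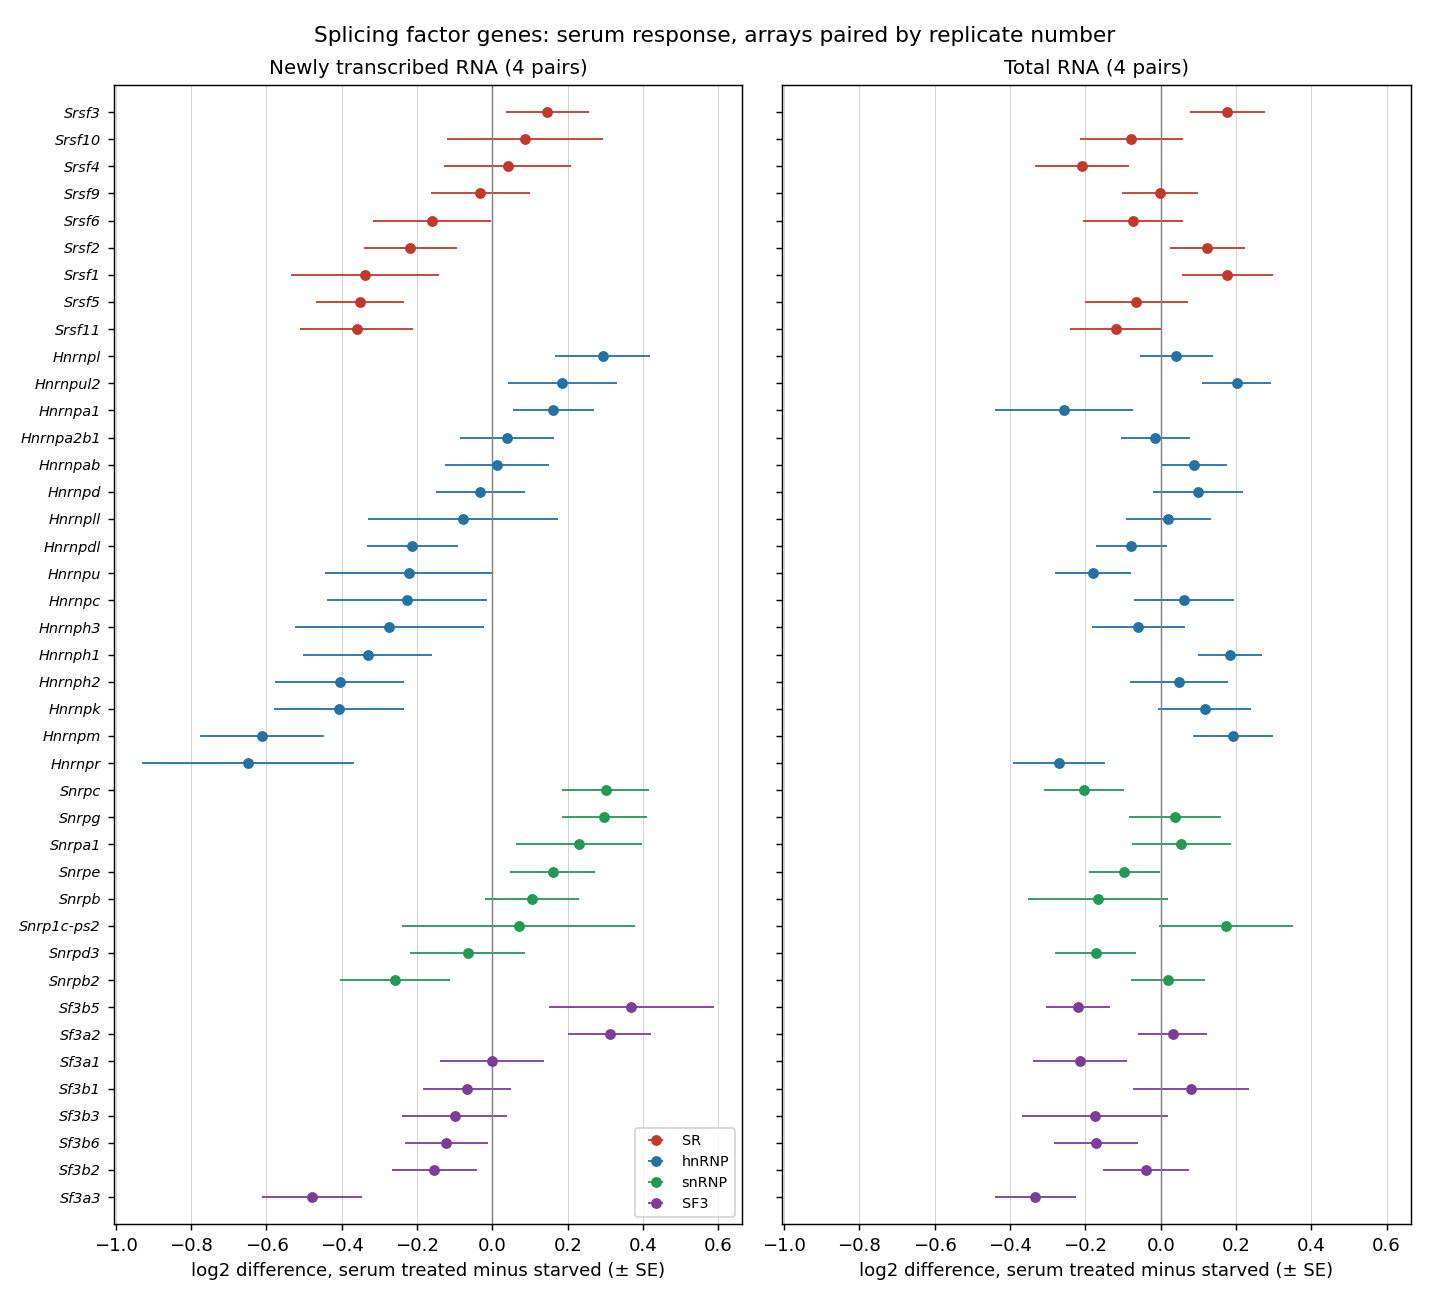
Log2 difference (± SE) between serum treated and starved cells for each of the 41 genes, in newly transcribed RNA (left) and total RNA (right), both fitted with arrays paired by replicate number. Colours give the subfamily. No gene had an adjusted p below 0.05, and the values run from -0.65 to 0.37 on the left and from -0.33 to 0.20 on the right.

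The largest negative differences in newly transcribed RNA were those of hnRNP genes. Hnrnpr, a close relative of Syncrip, had 8.41, 7.0, 6.95 and 7.70 in treated cells, against 8.36, 8.08, 8.45 and 7.75 in starved cells. Arrays 2 and 3 differed by more than 1, arrays 1 and 4 hardly, and the difference was -0.65 ± 0.34 without pairs (adjusted p = 0.88). Hnrnpm, known for its control of variable exons of CD44, had 10.53, 8.88, 8.98 and 9.48 in treated cells, against 11.22, 9.46, 10.03 and 9.61 in starved cells. It was lower in all 4 pairs (-0.61 ± 0.17 with the pairs, adjusted p = 0.11). Sf3a3 had 7.73, 8.68, 8.38 and 7.60, against 8.21, 8.88, 9.18 and 8.03, also lower in all 4 pairs (-0.48 ± 0.13, adjusted p = 0.12). Srsf11 had 10.78, 9.95, 9.58 and 9.97, against 11.19, 9.96, 10.35 and 10.24 (-0.36 ± 0.15, adjusted p = 0.23), and Srsf5 differed by -0.35 ± 0.12 (adjusted p = 0.16).

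Positive differences were smaller. Sf3b5 had the largest, at 0.37 ± 0.22 with the pairs, since arrays 2 and 3 were higher and arrays 1 and 4 lower in treated cells. Sf3a2 (0.31 ± 0.11, adjusted p = 0.17), Snrpc (0.30 ± 0.12, adjusted p = 0.20) and Snrpg (0.30 ± 0.11, adjusted p = 0.20) were higher in all 4 pairs. Snrpa1 had 0.23 ± 0.17, Hnrnpul2 0.19 ± 0.14 and Srsf3 0.15 ± 0.11, and Snrpb2 had -0.26 ± 0.15. In all, 7 genes were higher and 7 lower in all 4 pairs. No share over all probe sets is given for this, so these counts have no background beside them. With values as deposited, which are not scaled to each other, all 41 differences were negative (median -0.50, against -0.18 over all probe sets), so that the positive directions depend on the scaling.

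Total RNA showed less spread and smaller differences. Again 0 of 41 were called (0 at an unadjusted p below 0.05 without pairs, against 4.94% of all probe sets, and 2 with them, against 10.7%), and 0.121% of all probe sets without and 0.483% with pairs. The treated and starved arrays were apart for 0 of the 41 genes (2.95% of all probe sets). The median was -0.01 (19 positive), against -0.01 over all probe sets. With the pairs the 95% intervals of all 41 genes lay within 1 of 0 on the scale log2(value + 16). Sf3a3 had 7.53, 7.96, 7.57 and 8.01 in treated cells, against 7.59, 8.33, 7.95 and 8.52 in starved cells. It was lower in all 4 pairs here as well (-0.33 ± 0.11, adjusted p = 0.37). Hnrnpr had 7.66, 7.70, 7.66 and 7.70, against 7.65, 8.21, 8.11 and 7.82 (-0.27 ± 0.12), and Sf3b5 8.68, 9.14, 8.72 and 8.90, against 8.91, 9.37, 8.99 and 9.07 (-0.22 ± 0.08, adjusted p = 0.44). The largest positive difference was that of Hnrnpul2, with 7.03, 7.28, 7.29 and 7.36, against 6.88, 6.94, 7.19 and 7.13 (0.20 ± 0.09). With values as deposited the median was 0.36, against 0.21 over all probe sets, and 40 of the 41 differences were positive. The negative directions of Sf3a3 (0.072 as deposited) and Hnrnpr (0.13) turned there. In bulk RNA of this kind, fewer cells of a type and less RNA per cell cannot be told apart.

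In amplified total RNA 0 of 41 genes and 0% of all probe sets were called (0 of the 41 and 1.41% at an unadjusted p below 0.05), and the median was -0.12 (9 positive). With values as deposited it was 0.36, with 39 of 41 positive, so that its direction depends on the scaling. The serum response of newly transcribed RNA minus that of total RNA was called for 0 of 41 genes and 0% of all probe sets, and that between newly transcribed and amplified RNA likewise. At an unadjusted p below 0.05 these were 0 of 41 each, against 2.41% and 1.62% of all probe sets. With the pairs, Hnrnpm differed between newly transcribed and total RNA by -0.80 ± 0.21 (adjusted p = 0.32), Snrpc by 0.50 ± 0.16 (adjusted p = 0.34) and Sf3b5 by 0.59 ± 0.25 (adjusted p = 0.44). None of the 6 other lists of splicing genes had a member called for serum in any fit.

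Some probe sets cannot tell near copies apart. 9 of the 41 genes are read by probe sets that the maker marks as matching several transcripts or as designed under relaxed rules, Srsf2, Srsf3, Hnrnpdl, Sf3a2, Sf3b2, Snrpb, Snrpb2, Snrpe and Snrp1c-ps2, so that their values may include related transcripts.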

How the data were processed

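RNA of 23 samples was measured on 1-colour Affymetrix arrays. Per the labels' protocols, RNA was reverse transcribed, linearly amplified and labelled with biotin. The deposited values are 1 linear intensity per probe set and array (12488 probe sets, 0 to 11017.1, 42 values at 0). The software and scaling behind them are not given in the sources used here. The number of arrays limits the precision.

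Intensities were quantile normalized and log2(value + 16) was taken (R 4.3.3). The 66 control probe sets were left out, which leaves 12422. Of these, 10833 had 1 symbol in the platform annotation, 396 had several and 1193 were not listed. Groups came from the titles. Comparisons were fitted with limma 3.58.1 (lmFit, eBayes, two-sided), each on its own groups, without a block. Same-numbered arrays were checked as pairs by correlating their deviations from the group means over all probe sets. They paired in newly transcribed RNA (0.80, 0.80, 0.76 and 0.70 between treated and starved), in total RNA (0.70, 0.23, 0.47 and 0.57) and between newly transcribed and amplified RNA of treated cells (0.56, 0.73, 0.71 and 0.69), but not between amplified treated and starved arrays (-0.47 for number 3) or between newly transcribed and amplified RNA of starved cells (-0.39 for number 3). What a shared number stands for is not in the titles, so the pairing comes from the data. P-values measure the spread between these arrays.

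Named genes were all called members where 12 or fewer were called (otherwise the 6 largest each way), and the highest and lowest member of each subfamily by moderated t. Values on every array are given for 12 of the genes so named in the serum comparisons of newly transcribed and total RNA and in starved newly transcribed against amplified RNA, those named in most of these 3 comparisons and then with the largest moderated t. Srsf4, Snrp1c-ps2, Snrpc and Sf3b1 were beyond the 12. A few others (Srsf2, Snrpe, Hnrnpa1, Hnrnpm, Hnrnpl and Snrpc) were given array values after their results were seen. The members and gene lists were chosen with earlier results of these data known. Array clusters came from average linkage of correlations between arrays. Alternatives were other scalings, pseudocount 1, dim probe sets left out, the brightest probe set by deposited values, 1 fit over all 6 groups, blocks, and each array left out. The fit without a block was tested on simulated arrays with known changes put in, for some of the comparisons. Their spread was set smaller than that of the real arrays. That test therefore does not give the power at the real spread and does not cover the fits with blocks. Promoters are from RefSeq (GRCm38.p6).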

Additional observations from a re-analysis of the deposited data

Results flagged for a closer look

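Snrpg, the gene for the Sm ring protein SmG, had 6.36 on newly transcribed array 1 of treated cells, far below the other 3 arrays of that group, which lay between 7.26 and 7.44. Chance sets about 1 in 20 groups apart in this way, so that over the 6 groups of the 41 genes such values arise by chance. Array 1 was also the lowest of the newly transcribed starved arrays, at 6.13 against 6.95 to 7.13.

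Hnrnpm, an hnRNP gene, was lower with serum in all 4 pairs of newly transcribed RNA and higher in all 4 pairs of total RNA, with a difference of -0.80 between the responses. The pairs differed by -0.69, -0.58, -1.05 and -0.13 in newly transcribed RNA and by 0.08, 0.44, 0.24 and 0.01 in total RNA. The test of the difference did not pass the threshold (adjusted p = 0.32 with the pairs and 1.0 without, limma).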

How the results depend on the processing

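Of the results on counts and medians, 276 of 294 alternative values kept their direction and stayed within the spread, or within 1.5 times the count. The counts of 0 called genes for serum and for the differences between serum responses held under every alternative run (leaving out arrays included). Newly transcribed against amplified RNA depended most on the fit. In treated cells 0 were called, with 503 of all 12422 probe sets, and 1 fit over all 6 groups called 4, with 1413. The replicate block called 10, with 2626, and the array cluster block 10, with 2257. Leaving out single arrays gave 0 to 1 (1 without amplified treated array 4, with 415). In starved cells 0 were called, with 394 of all probe sets. Leaving out dim probe sets gave 1, with 389 of the 6211 probe sets left. The 1 fit gave 3, with 1174, and the cluster block 2, with 1479. Leaving out arrays gave 0 to 1 (1 without amplified starved array 3, with 224). The replicate block changed no call for serum. For amplified against total RNA, 3 genes were called with values as deposited, with 353 of all probe sets in place of 2516. The replicate block and the cluster block called 19 each, and leaving out arrays gave 13 to 18. Counts over all probe sets are not given here for these last fits, so their counts of genes have no background beside them.

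Medians of the 41 genes moved with values as deposited to -0.50 (serum, newly transcribed), 0.36 (serum, total), 0.36 (serum, amplified), 1.15 (newly transcribed against amplified, starved), and to -0.84 and -0.85 for the response in newly transcribed RNA minus that in total and in amplified RNA. Scaling to 1 median gave 0.34 for amplified against total RNA, which ran from -0.066 to 0.19 with arrays left out. The median of newly transcribed against amplified RNA in starved cells ran from 0.030 (without amplified starved array 2) to 0.54.

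Named genes whose sign turned follow. None of them was called, and their reported values ran up to 0.60 (Hnrnpa1, response in newly transcribed minus amplified RNA). For serum in newly transcribed RNA, values as deposited gave -0.30 for Srsf3, -0.16 for Hnrnpul2, -0.22 for Snrpa1 and -0.13 for Sf3b5, and arrays left out gave -0.024 to 0.34 for Srsf3 and -0.71 to 0.14 for Snrpb2. For serum in total RNA, values as deposited gave 0.15 for Srsf4, 0.13 for Hnrnpr, 0.22 for Snrpc and 0.072 for Sf3a3, and arrays left out gave -0.029 to 0.22 for Sf3b1. For serum in amplified RNA, values as deposited gave 0.0028 for Srsf2, 0.090 for Hnrnpa1, 0.22 for Snrpd3 and 0.39 for Sf3b2. There Srsf9 had -0.075 with the replicate block, -0.16 with the cluster block and -0.81 to 0.78 with arrays left out, Sf3a3 -0.17 to 0.56 and Hnrnpd -0.13 to 0.30. For newly transcribed against amplified RNA, arrays left out gave -0.23 to 0.57 for Srsf5 in treated cells. In starved cells Srsf3 had 1.12 as deposited, 0.20 scaled to 1 median, 0.12 with the cluster block and -0.25 to 0.17 with arrays left out, and Hnrnpul2 had 0.17 as deposited.

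For the serum response of newly transcribed less that of total RNA, values as deposited gave -0.56 for Srsf4, -0.26 for Hnrnpa1, -0.28 for Snrpc and -0.35 for Sf3b5, and arrays left out gave -0.033 to 0.50 for Srsf4, -0.73 to 0.12 for Snrpb2 and -0.24 to 0.051 for Sf3b2. For that in newly transcribed minus amplified RNA, values as deposited gave -0.51 for Srsf3, -0.36 for Hnrnpa1, -0.57 for Snrpg and -0.56 for Sf3a2, and the replicate block gave 0.077 for Srsf6 and -0.0016 for Sf3a2. Arrays left out gave -0.34 to 0.0066 for Snrpa1, -0.42 to 0.26 for Srsf6 and -0.0016 to 0.72 for Sf3a2. The causes were not tested.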
